A study of Mus musculus with 9 samples.

Results

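The matrix metalloproteinases and their tissue inhibitors, the TIMPs, were followed by transcript level in the media, the smooth muscle layer, of femoral arteries from C57BL/6 mice. The members were 10 genes, taken by gene name from the 3 deposited tables, which list 17093 genes in all: 6 metalloproteinases (Mmp2, Mmp3, Mmp8, Mmp12, Mmp14 and Mmp23) and 4 inhibitors (Timp1, Timp2, Timp3 and Timp4). All 10 were present and tested in each of the 3 tables. RNA sequencing libraries were made from 3 groups of 3 libraries. The inhibitor-treated group had wire injury, in which a wire passed through the lumen damages the vessel wall, and received VS-4718, an inhibitor of focal adhesion kinase (FAK), given orally over 2 weeks at 50 mg/kg per dose with 2 doses each day, and its arteries were taken at day 14. The injured group had wire injury alone, with arteries taken at day 14. The sham group had the sham operation. The labels name citrate buffer as the vehicle, without saying whether sham mice received it. The labels number the libraries without giving the animals behind each. The p-values therefore reflect the spread among these libraries alone, and that spread may be technical.

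Metalloproteinases are zinc-dependent enzymes that are mostly secreted or membrane-bound as inactive precursors, and once activated they cut collagens, laminins, elastin and other matrix proteins. TIMPs bind their active site and block them, while TIMP2 also acts as the adaptor through which MMP14 on the cell surface activates pro-MMP2. In the arterial wall this system is known for loosening the basement membrane around smooth muscle cells, which helps them to migrate into the intima after injury. FAK is a kinase at the sites where integrins attach a cell to its matrix, and the study's title places it in the change of smooth muscle cells away from the contractile state.

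Between 14674287 and 21245607 reads per library were recovered from the deposited normalised counts. Levels below are normalised read counts, made by dividing these reads by 1 factor per library over all 9 libraries, so that the 3 groups share a scale; each test was made within the deposited table of its own pair of groups. The labelled tissue carried its markers: 8 of 8 smooth muscle markers were listed, and their summed level was 581106 to 590683 in inhibitor-treated libraries, 148397 to 173529 in injured libraries and 494752 to 664225 in sham libraries. Per the labels, a brief flush of the lumen with TRIzol was meant to strip endothelium and immune cells, yet 10 of 10 macrophage, 9 of 10 neutrophil and 10 of 10 endothelial markers were listed. Some libraries stood apart on markers of other tissues. Summed hepatocyte markers were 32631 in inhibitor-treated replicate 3, against 453 and 593 in the other inhibitor-treated libraries. Summed skeletal muscle markers were 2358, 37573 and 8421 in inhibitor-treated libraries, 62081, 532395 and 31692 in injured libraries, and 7577, 5119 and 30221 in sham libraries, so that inhibitor-treated replicate 2, injured replicate 2 and sham replicate 3 were the highest of their groups. Without inhibitor-treated replicate 2, 6 members were called against injured and 0 against sham arteries. Erythroid markers, 8 of 10 listed, set the whole inhibitor-treated group apart: their sum was 40108, 91684 and 50957 in inhibitor-treated libraries, 830, 2232 and 579 in injured libraries, and 738, 673 and 838 in sham libraries. By limma, 7 of 8 were higher in inhibitor-treated than in injured arteries and 8 of 8 higher than in sham arteries. Of these 8, 3 were also tested in injured against sham arteries. The others were high enough to be tested only through the inhibitor-treated group. The part of these markers in the members' values was not tested. Results that change without injured replicate 2, sham replicate 3 and inhibitor-treated replicate 3 are given beside the gene; without them 6, 7 and 2 members were called in inhibitor-treated against injured, injured against sham, and inhibitor-treated against sham arteries, beside 7, 7 and 3 with all libraries. A level from a bulk sample cannot tell fewer cells of a type from less RNA per cell.

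In inhibitor-treated against injured arteries, 5 members fell (Mmp2, Mmp3, Mmp12, Mmp14 and Timp1), 2 rose (Mmp23 and Timp4), and 3 did not pass the test (Mmp8, Timp2 and Timp3). The test was limma with Benjamini-Hochberg adjustment over all genes and a threshold of 0.05. Of all 16901 genes tested there, 18.5% were called lower and 17.6% higher, so 36.1% were called in all. In injured against sham arteries, 6 members rose (Mmp2, Mmp3, Mmp8, Mmp12, Mmp14 and Timp1), Mmp23 fell, and 3 did not pass (Timp2, Timp3 and Timp4), where 20.6% of 16278 genes were called higher and 16.8% lower, 37.3% in all. In inhibitor-treated against sham arteries, Mmp8 and Mmp12 were higher, Mmp23 was lower and the other 7 did not pass, with 5.15% of 16166 genes called higher and 0.934% lower, 6.08% in all. A gene was tested where its mean over the libraries compared was at least 10. Mmp8 and Mmp12 had sham means of 0.726 and 4.63, so both were tested against sham arteries only through the other group. The median log2 fold change of the 10 members was -1.13 for inhibitor-treated over injured, 1.61 for injured over sham and -0.07 for inhibitor-treated over sham, beside medians of 0.01, -0.00 and -0.01 over all genes tested. Split by kind, the median of the 6 metalloproteinases was -1.76, 2.55 and 0.18 in those 3 comparisons, and that of the 4 TIMPs was 0.16, -0.14 and -0.12. By the libraries themselves, the 2 groups compared did not overlap for 8 members in inhibitor-treated against injured arteries (2 higher and 6 lower, beside 26.1% and 25.5% of all genes), for 8 in injured against sham arteries (6 higher and 2 lower, beside 26% and 25.3%), and for 4 in inhibitor-treated against sham arteries (2 higher and 2 lower, beside 14.7% and 13.1%). The 3 comparisons share libraries pairwise, so a gene's values in them are not independent.

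**Figure D1:**
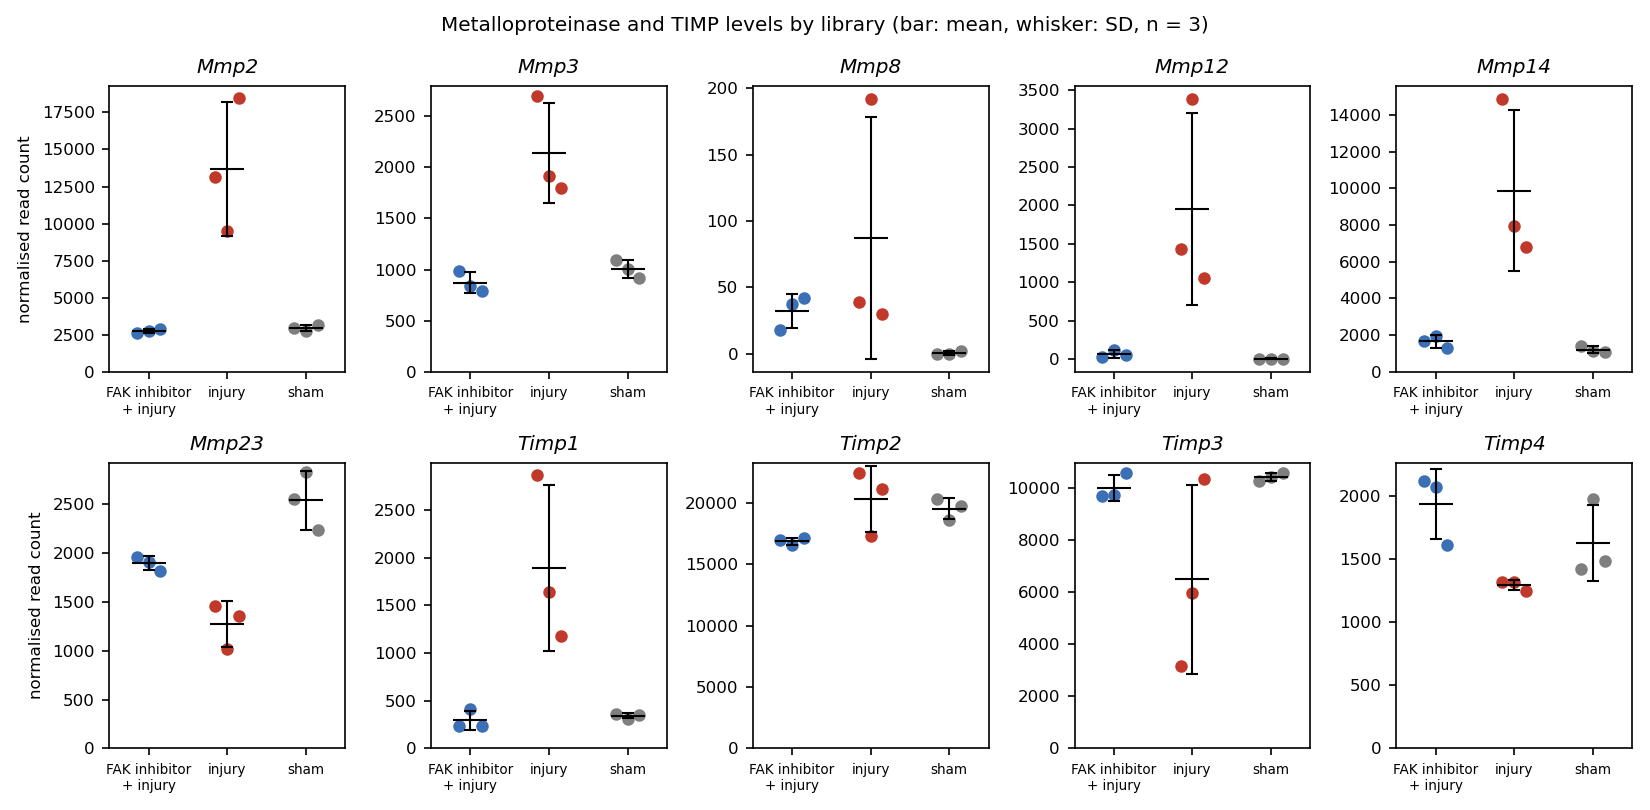
Normalised read count (vertical axis, linear) of each of the 10 genes in the inhibitor-treated, injured and sham libraries, left to right; each point is 1 library, the bar the mean and the whisker the SD (n = 3). Mmp2, Mmp3, Mmp12, Mmp14 and Timp1 have all 3 injured libraries above the other 6, Mmp23 and Timp4 have them below, and Timp3 has its injured libraries spread between 3139 and 10340.

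Mmp2, also called gelatinase A, cuts denatured collagen and basement membrane collagen, and lies on chromosome 8 (92827291-92853420 on GRCm38, plus strand). Its normalised count was 2635, 2733 and 2903 in inhibitor-treated libraries, 13136, 9495 and 18490 in injured libraries, and 2942, 2783 and 3174 in sham libraries. Every injured library was above every other library, and the inhibitor-treated and sham ranges overlapped. The log2 fold change was -2.26 ± 0.22 (SE) for inhibitor-treated over injured (limma adjusted p = 0.000386) and 2.15 ± 0.22 for injured over sham (limma adjusted p = 0.000166). Inhibitor-treated over sham gave -0.09 ± 0.08 (limma adjusted p = 0.537).

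Mmp14 encodes MT1-MMP, the membrane-anchored collagenase that activates pro-MMP2 at the cell surface, and lies on chromosome 14 (54431612-54445364, plus strand). It had 1695, 1971 and 1302 normalised counts in inhibitor-treated libraries, 14889, 7928 and 6832 in injured libraries, and 1428, 1161 and 1057 in sham libraries. The injured libraries again stood clear of the other 6, with replicate 1 highest. Inhibitor-treated over injured was -2.51 ± 0.30 on the log2 scale (limma adjusted p = 0.000786), and injured over sham was 2.94 ± 0.27 (limma adjusted p = 9.95e-05). Inhibitor-treated over sham was 0.45 ± 0.16, which did not pass the test (limma adjusted p = 0.162), and the ranges of these groups overlapped.

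Timp2 encodes the inhibitor and adaptor of this activation step, and lies on chromosome 11 (118301069-118355740, minus strand). Timp2 had 16952, 16558 and 17121 normalised counts in inhibitor-treated libraries, 22465, 17321 and 21108 in injured libraries, and 20290, 18585 and 19718 in sham libraries. All 3 inhibitor-treated libraries lay below the other 6. Against injured arteries, the groups did not overlap for 51.6% of all genes tested, counting both directions, and for 25.5% with inhibitor-treated libraries lower. Against sham arteries these shares were 27.9% and 13.1%. The share of genes with the Timp2 pattern, below both groups at once, was not counted. The log2 fold change was -0.25 ± 0.13 for inhibitor-treated over injured (limma adjusted p = 0.162), -0.20 ± 0.07 for inhibitor-treated over sham (limma adjusted p = 0.174) and 0.04 ± 0.16 for injured over sham (limma adjusted p = 0.862), so none passed. The difference between inhibitor-treated and injured arteries passed without injured replicate 2, at -0.37 (limma adjusted p = 0.048), and after quantile normalisation, at -0.60 (limma adjusted p = 0.0296).

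The ratio of a protease to an inhibitor transcript within 1 library does not depend on how the libraries were scaled. Mmp2 reads per Timp2 read were 0.155, 0.165 and 0.17 in inhibitor-treated libraries, 0.585, 0.548 and 0.876 in injured libraries, and 0.145, 0.15 and 0.161 in sham libraries. Mmp14 reads per Timp2 read were 0.1, 0.119 and 0.0761 in inhibitor-treated libraries, 0.663, 0.458 and 0.324 in injured libraries, and 0.0704, 0.0625 and 0.0536 in sham libraries. Both ratios were higher in every injured library than in any other library, and the Mmp14 ratio was also higher in every inhibitor-treated than in every sham library. The geometric mean of Mmp2 over Timp2 was 0.249 times as high in inhibitor-treated as in injured libraries and 4.31 times as high in injured as in sham libraries. For Mmp14 over Timp2 these were 0.21 and 7.47 times, and 1.57 times for inhibitor-treated over sham. Between the groups, 5 such ratios were compared in 15 exact two-sided permutation tests of 3 against 3 libraries, which cannot give a p under 0.1, and p = 0.1 (adjusted over the 15, 0.125) was reached in these 5 comparisons. The Mmp2 ratio in inhibitor-treated against sham libraries gave 1.08 times with an exact p of 0.2 (adjusted, 0.231).

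**Figure D2:**
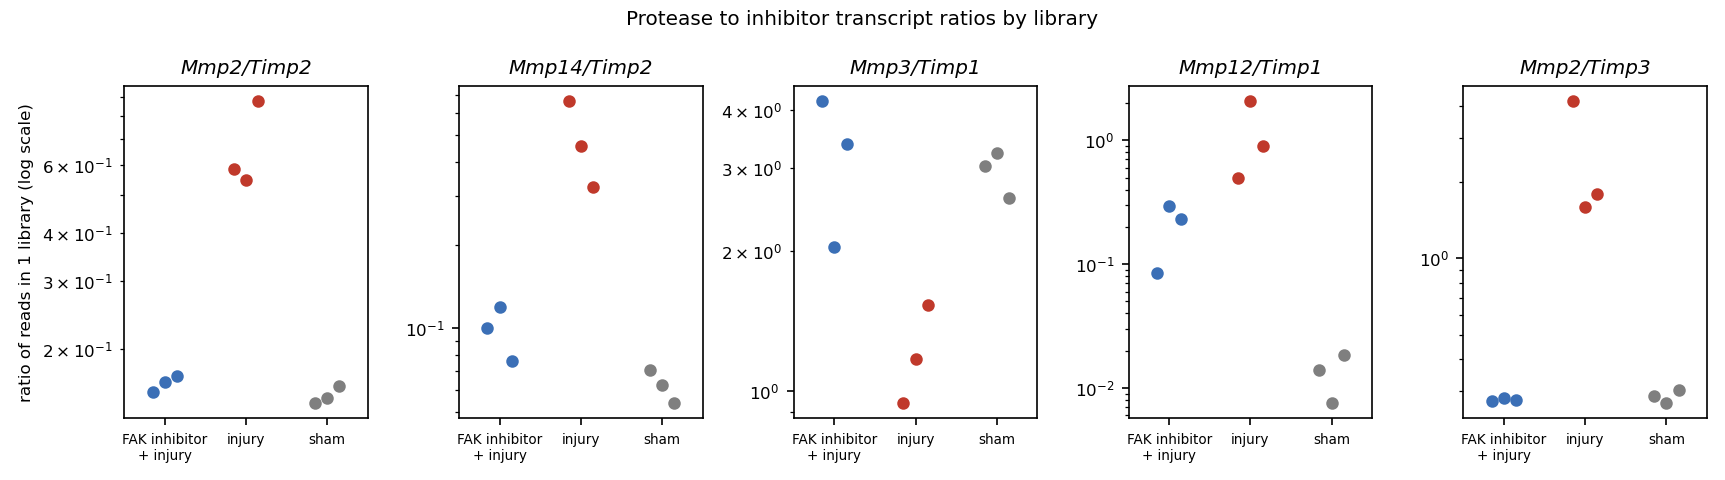
Reads of a metalloproteinase per read of a TIMP in the same library (vertical axes, log scale), with the inhibitor-treated, injured and sham groups left to right and 1 point per library. The Mmp2 to Timp2, Mmp14 to Timp2 and Mmp2 to Timp3 ratios are highest in the 3 injured libraries, while the Mmp3 to Timp1 ratio is lowest there, at 0.942 to 1.53.

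Mmp3, stromelysin 1, cuts proteoglycans and laminin and can activate other pro-metalloproteinases. It lies on chromosome 9 (7445822-7455975, plus strand) in a cluster of 9 coding metalloproteinase genes that spans 427 kb, of which 5 are listed in the tables (Mmp13, Mmp12, Mmp3, Mmp8 and Mmp27, in this order). Its normalised count was 989, 837 and 792 in inhibitor-treated libraries, 2698, 1914 and 1801 in injured libraries, and 1089, 1009 and 915 in sham libraries. The injured libraries lay above the other 6, and the inhibitor-treated and sham ranges overlapped. The log2 fold change was -1.27 ± 0.17 for inhibitor-treated over injured (limma adjusted p = 0.00131), 1.06 ± 0.16 for injured over sham (limma adjusted p = 0.00134) and -0.19 ± 0.10 for inhibitor-treated over sham (limma adjusted p = 0.334).

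Timp1 encodes a secreted inhibitor of most metalloproteinases that is known as an inducible gene, and lies on the X chromosome (20870166-20874735, plus strand) inside the gene Syn1 on the other strand. It had 236, 409 and 234 normalised counts in inhibitor-treated libraries, 2863, 1635 and 1176 in injured libraries, and 359, 312 and 353 in sham libraries. The injured libraries were all above the rest, and inhibitor-treated replicate 2 was above every sham library while replicates 1 and 3 were below them. Timp1 was the 1 TIMP of 4 that rose in injured against sham arteries, and its log2 fold change was -2.63 ± 0.35 for inhibitor-treated over injured (limma adjusted p = 0.00126) and 2.36 ± 0.28 for injured over sham (limma adjusted p = 0.00035). Inhibitor-treated over sham gave -0.25 ± 0.21 (limma adjusted p = 0.535). Per library, Mmp3 reads per Timp1 read were 4.18, 2.04 and 3.38 in inhibitor-treated libraries, 0.942, 1.17 and 1.53 in injured libraries, and 3.03, 3.24 and 2.59 in sham libraries. This ratio was therefore lower in injured libraries, 2.58 times as high in inhibitor-treated as in injured (exact permutation p = 0.1) and 0.405 times as high in injured as in sham (exact permutation p = 0.1). Mmp12, the macrophage elastase, ran the other way: its reads per Timp1 read were 0.0843, 0.296 and 0.233 in inhibitor-treated libraries, 0.5, 2.07 and 0.893 in injured libraries, and 0.0139, 0.00752 and 0.0185 in sham libraries. The 3 groups did not overlap in this ratio, which was 0.184 times as high in inhibitor-treated as in injured, 78.1 times as high in injured as in sham, and 14.4 times as high in inhibitor-treated as in sham libraries (exact permutation p = 0.1 for each).

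The upstream sequences of 4 members that were called higher in injured than in sham arteries are shown with the matches of 1 motif. The motif TGANTCA, the core bound by AP-1 factors of the Fos and Jun families, which reads the same on both strands, was searched in the 250 bases before each annotated RefSeq start on GRCm38.p6. Of the members, 9 had a window (11 windows in all) and 2 windows held a match, beside 2217 of 32851 windows over all genes (6.75%). The match, in capitals, lies in the Mmp3 window at position -46 and in the window of a second annotated start of Mmp12 at position -44, counted from the start to the first base of the match. The windows of Mmp14, Timp1, Mmp8 and the first annotated start of Mmp12 held no match to these letters, nor did those of Mmp23, Timp2, Timp3 and Timp4, and Mmp2 had no window. All 4 are on the plus strand, printed 5′ to 3′ from RefSeq, at chr9:7445572-7445821 (Mmp3), chr9:7347124-7347373 (Mmp12), chr14:54431348-54431597 (Mmp14) and chrX:20869916-20870165 (Timp1).
Mmp3: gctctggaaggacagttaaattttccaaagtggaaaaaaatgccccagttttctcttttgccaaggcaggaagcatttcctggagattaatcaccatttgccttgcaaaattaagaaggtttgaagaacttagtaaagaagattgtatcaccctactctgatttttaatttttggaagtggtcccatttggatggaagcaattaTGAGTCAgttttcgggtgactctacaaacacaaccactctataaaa
Mmp12: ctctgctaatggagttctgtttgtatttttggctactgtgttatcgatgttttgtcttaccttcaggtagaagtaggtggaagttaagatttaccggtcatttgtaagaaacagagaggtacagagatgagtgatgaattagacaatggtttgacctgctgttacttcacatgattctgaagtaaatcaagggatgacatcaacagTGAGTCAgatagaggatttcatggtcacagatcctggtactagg
Mmp14: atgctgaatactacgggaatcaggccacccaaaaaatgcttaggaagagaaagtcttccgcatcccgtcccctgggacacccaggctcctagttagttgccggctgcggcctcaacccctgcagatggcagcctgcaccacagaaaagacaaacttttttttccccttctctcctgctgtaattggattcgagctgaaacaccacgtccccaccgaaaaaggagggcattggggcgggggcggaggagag
Timp1: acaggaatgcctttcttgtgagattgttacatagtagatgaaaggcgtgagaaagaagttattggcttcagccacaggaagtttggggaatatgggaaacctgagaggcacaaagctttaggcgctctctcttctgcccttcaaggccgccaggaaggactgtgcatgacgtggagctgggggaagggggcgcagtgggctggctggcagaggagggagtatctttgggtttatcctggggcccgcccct

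Mmp12, macrophage elastase, cuts elastin and is known as a macrophage product. The gene lies on chromosome 9 (7344381-7369499, plus strand) and shares 157 exon bases with Mmp1b on the other strand, which is not listed in the tables. Mmp12 had 19.9, 121 and 54.5 normalised counts in inhibitor-treated libraries, 1433, 3385 and 1050 in injured libraries, and 5.01, 2.34 and 6.53 in sham libraries. The 3 groups did not overlap, and the inhibitor-treated libraries lay between the others. Mmp12 had the largest fold change among the 10 genes in both comparisons with the injured group: -5.04 ± 0.67 on the log2 scale for inhibitor-treated over injured (limma adjusted p = 0.00125) and 8.32 ± 0.46 for injured over sham (limma adjusted p = 1.57e-05). Reads summed to 5993 over the injured and 13 over the sham libraries, a depth-scaled ratio of 418 with a 95% exact interval of 244 to 785 that covers counting error only.

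Mmp12 in inhibitor-treated arteries was above sham by 3.30 ± 0.65 (limma adjusted p = 0.0236). The 213 reads in inhibitor-treated and 13 in sham libraries give a ratio of 14. Its 95% exact interval of 8.01 to 26.7 again covers counting error only. The call rests on few libraries: it was lost without sham replicate 1 (adjusted p = 0.0814), sham replicate 2 (0.085), inhibitor-treated replicate 2 (0.0778) or inhibitor-treated replicate 3 (0.0812), without the 3 libraries that stood apart (3.51, adjusted p = 0.104) and after quantile normalisation (2.62, adjusted p = 0.0552), all by limma. Macrophage markers moved in the same direction as Mmp12 in both comparisons with the injured group. Their summed level was 4843, 8701 and 6528 in inhibitor-treated, 32798, 40924 and 27616 in injured, and 3278, 2920 and 4105 in sham libraries. Lyz2 was the larger part of each sum, with means of 5257 in inhibitor-treated, 21118 in injured and 2103 in sham arteries. By limma, 10 of 10 fell in inhibitor-treated against injured arteries and 10 of 10 rose in injured against sham arteries. Lyz2 and Ccr2 were the 2 that were higher in inhibitor-treated than in sham arteries. The others did not pass there, with log2 fold changes from -0.25 (Csf1r) to 0.61 (Msr1). The part of these cells in the Mmp12 result was not tested.

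Mmp8, neutrophil collagenase, is stored in neutrophil granules and cuts fibrillar collagen, and lies on chromosome 9 (7558456-7568485, plus strand). Inhibitor-treated libraries held 19, 41 and 46 reads of it, injured libraries 33, 203 and 35, and sham libraries 0, 0 and 2. In normalised counts it had 18, 37.6 and 41.8 in inhibitor-treated libraries, 39.4, 192 and 30.1 in injured libraries, and 0, 0 and 2.18 in sham libraries. The inhibitor-treated and injured ranges overlapped, both lay above sham, and injured replicate 2 was far above the rest. Of the 6 metalloproteinases, Mmp8 was the 1 that did not pass the test between inhibitor-treated and injured arteries, at -0.98 ± 0.70 (limma adjusted p = 0.305). Without injured replicate 2 that value was -0.17. Injured over sham was 5.36 ± 0.80 (limma adjusted p = 0.0011) and inhibitor-treated over sham 4.43 ± 0.68 (limma adjusted p = 0.00823), lost without inhibitor-treated replicate 2 (4.29, limma adjusted p = 0.0513). Both rest on 2 sham reads: 271 against 2 reads gave a ratio of 123 (95% exact interval 33.7 to 1019) and 106 against 2 a ratio of 45.3 (12.2 to 379). These intervals cover counting error only and leave out the spread between libraries. Injured replicate 2 gave 203 of the 271 reads.

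Neutrophil markers, beside which Mmp8 stood, differed among themselves. Their summed level was 2370, 2659 and 2433 in inhibitor-treated libraries, 1309, 6519 and 1783 in injured libraries, and 39.1, 32.8 and 63.2 in sham libraries. The precursor granule genes Ngp, Camp, Ltf and Mpo fell in inhibitor-treated against injured arteries, by 5.33, 5.86, 6.00 and 3.68 on the log2 scale (limma adjusted p = 0.00172, 0.000828, 0.00142 and 0.00752), while Retnlg (2.32 ± 0.68, limma adjusted p = 0.0341) and Cxcr2 (1.64 ± 0.52, limma adjusted p = 0.044) rose. S100a8, S100a9 and Csf3r did not pass. All 9 listed markers rose in injured against sham arteries, and the 5 tested in inhibitor-treated against sham arteries were higher. Sham means were low (0.391 for Cxcr2 to 14.7 for Csf3r), so a marker was tested mainly where the other group was high. Ngp, Camp, Ltf and Mpo, not tested there, had means of 6.13, 1.54, 2.48 and 1.24 in inhibitor-treated arteries. In sham arteries their means were 3.21, 1.39, 3.96 and 0.726. Ly6g was not listed. The part of these cells in the Mmp8 values was not tested.

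**Figure D3:**
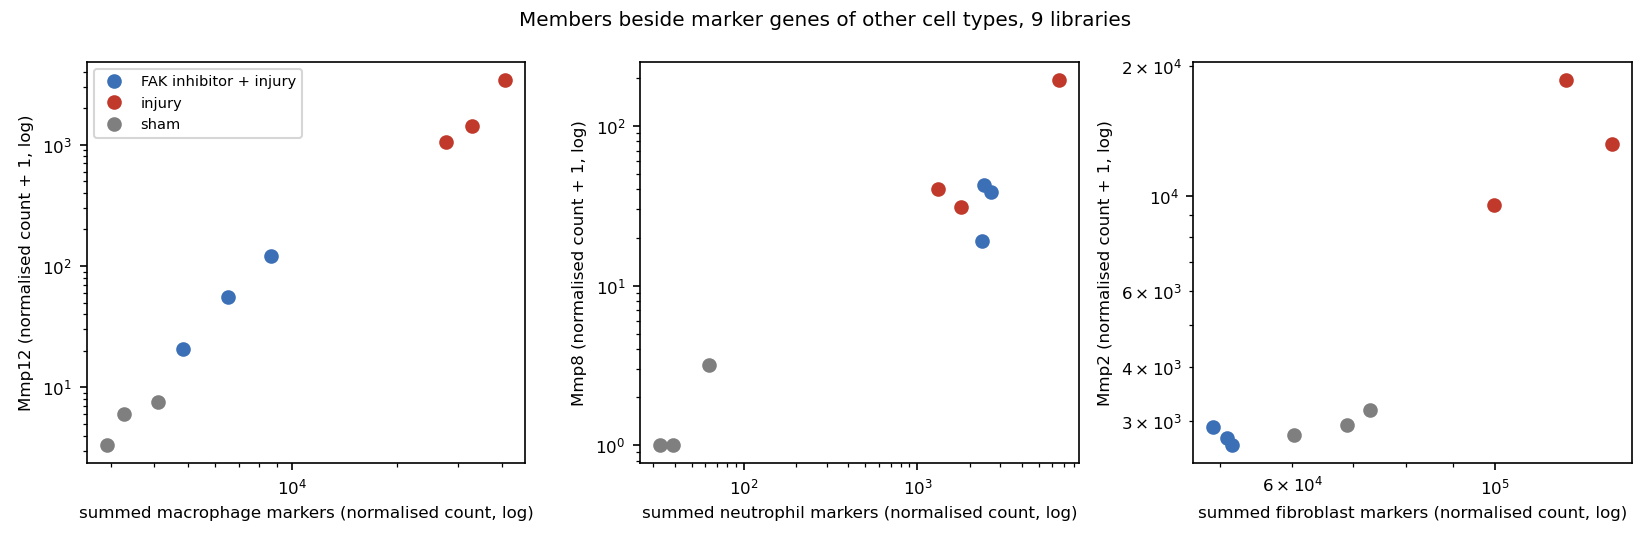
Level of Mmp12, Mmp8 and Mmp2 (vertical axes, normalised count plus 1, log scale) against the summed normalised count of macrophage, neutrophil and fibroblast markers (horizontal axes, log scale) in the 9 libraries, coloured by inhibitor-treated, injured and sham group. The 3 injured libraries have the highest Mmp12 and macrophage sums (27616 to 40924), while the inhibitor-treated libraries reach the injured range in Mmp8 and in neutrophil sums. Lyz2 is the larger part of each macrophage sum.

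Mmp2, Mmp3, Mmp14 and Timp1 are known to be made by activated fibroblasts and by smooth muscle cells that have left the contractile state. The summed level of 10 listed fibroblast markers was 51523, 50896 and 49159 in inhibitor-treated libraries, 134414, 99670 and 119699 in injured libraries, and 68876, 60199 and 73012 in sham libraries. By limma, 7 of 10 fell and 1 rose in inhibitor-treated against injured arteries, 5 rose and 2 fell in injured against sham arteries, and 4 were lower in inhibitor-treated than in sham arteries, with a median log2 fold change of -0.40 there. Endothelial markers, 10 of 10 listed, summed to 29408 to 30860 in inhibitor-treated, 33811 to 48162 in injured and 24011 to 36485 in sham libraries. Of these, 7 of 10 fell in inhibitor-treated against injured arteries and 7 of 10 rose in injured against sham arteries, with medians of -0.94 and 1.00, and 0 of 10 passed between inhibitor-treated and sham arteries in limma (0 with an unadjusted p under 0.05), edgeR or DESeq2. Of 8 smooth muscle markers, 7 rose in inhibitor-treated against injured and 7 fell in injured against sham arteries. Over all genes, 36.1% were called in inhibitor-treated against injured, 37.3% in injured against sham and 6.08% in inhibitor-treated against sham arteries. Whether cell makeup has a part in these 4 members' changes was not tested.

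Mmp23 encodes a small membrane-anchored metalloproteinase that lacks the hemopexin domain of its relatives, and lies on chromosome 4 (155650655-155653384, minus strand). It moved against the other proteases. Its normalised count was 1965, 1910 and 1823 in inhibitor-treated libraries, 1457, 1014 and 1352 in injured libraries, and 2561, 2829 and 2234 in sham libraries. The 3 groups did not overlap, with the injured libraries lowest and the inhibitor-treated ones between. The log2 fold change was 0.60 ± 0.14 for inhibitor-treated over injured (limma adjusted p = 0.0165), -1.01 ± 0.16 for injured over sham (limma adjusted p = 0.00145) and -0.40 ± 0.09 for inhibitor-treated over sham (limma adjusted p = 0.0359).

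The 2 Mmp23 differences that involve the inhibitor lay near the threshold. Inhibitor-treated over injured missed it without inhibitor-treated replicate 1 (0.57, limma adjusted p = 0.0644), without inhibitor-treated replicate 2 (0.59, limma adjusted p = 0.0573) and without the 3 libraries that stood apart (0.47, limma adjusted p = 0.0569). Inhibitor-treated over sham missed it without any 1 of 5 libraries, with limma adjusted p values of 0.113 and 0.093 without sham replicates 1 and 2, and of 0.0915, 0.112 and 0.114 without inhibitor-treated replicates 1, 2 and 3. It also missed it in a fit of all 9 libraries (-0.41, limma adjusted p = 0.17). The injured over sham call held under every alternative run.

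Timp3 encodes the TIMP that binds to the extracellular matrix and also inhibits ADAM proteases, and lies on chromosome 10 (86300372-86349506, plus strand) inside Syn3 on the other strand. Timp3 had 9666, 9732 and 10573 normalised counts in inhibitor-treated libraries, 3139, 5957 and 10340 in injured libraries, and 10250, 10390 and 10542 in sham libraries. Injured replicates 1 and 2 lay below the other 7 libraries and injured replicate 3 lay among them. The mean was 9990 ± 506 in inhibitor-treated, 6479 ± 3629 in injured and 10394 ± 146 in sham arteries (SD, n = 3 each). The log2 fold change was 0.79 ± 0.38 for inhibitor-treated over injured (limma adjusted p = 0.143), -0.85 ± 0.36 for injured over sham (limma adjusted p = 0.0969) and -0.05 ± 0.07 for inhibitor-treated over sham (limma adjusted p = 0.743). Without injured replicate 3 the first was 1.21 (limma adjusted p = 0.0107) and the second -1.27 (limma adjusted p = 0.00402), so this 1 library decided both calls. Mmp2 reads per Timp3 read were 0.273, 0.281 and 0.275 in inhibitor-treated libraries, 4.18, 1.59 and 1.79 in injured libraries, and 0.287, 0.268 and 0.301 in sham libraries. All injured libraries were above the rest, also replicate 3, and the ratio was 0.121 times as high in inhibitor-treated as in injured libraries and 8.02 times as high in injured as in sham libraries (exact permutation p = 0.1 for both).

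Timp4, a TIMP known for its presence in heart and vessels, lies on chromosome 6 (115241892-115252205, minus strand) inside Syn2 on the other strand. Its normalised count was 2123, 2074 and 1615 in inhibitor-treated libraries, 1315, 1321 and 1250 in injured libraries, and 1420, 1974 and 1484 in sham libraries. The injured libraries were the lowest of the 9, and the inhibitor-treated and sham ranges overlapped. Inhibitor-treated over injured was 0.57 ± 0.12 on the log2 scale (limma adjusted p = 0.00973). Injured over sham was -0.32 ± 0.14, which did not pass the test (limma adjusted p = 0.108) although the groups did not overlap, as in 51.3% of all genes tested there. Inhibitor-treated over sham gave 0.27 ± 0.15 (limma adjusted p = 0.341).

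Syn1, Syn2 and Syn3, the synapsin genes that hold Timp1, Timp4 and Timp3, were low in these libraries. The exons of Timp3 and Syn3 share 1733 bases, those of Timp4 and Syn2 90 bases, and those of Timp1 and Syn1 none. Whether reads were counted by strand is not given in the sources used here, so reads in the shared stretches cannot be assigned to 1 gene. The normalised count of Syn3 was 45.7 to 82.3 over the 9 libraries, that of Syn2 95.4 to 183, and that of Syn1 22.3 to 47.7. None of the 3, nor Cep295nl, which overlaps Timp2 outside its exons, passed the test in any of the 3 comparisons, in limma (0 with an unadjusted p under 0.05), edgeR or DESeq2.

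**Figure D4:**
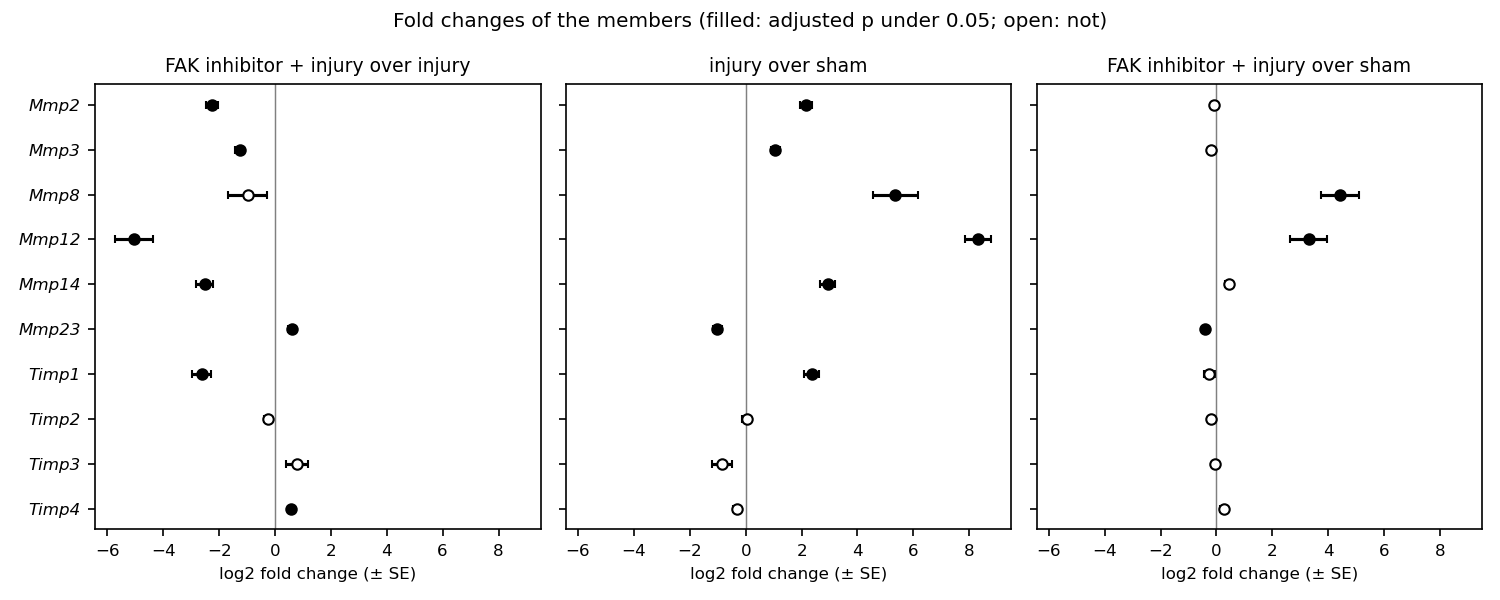
Log2 fold change with its standard error (horizontal axis) of the 10 genes in inhibitor-treated over injured, injured over sham and inhibitor-treated over sham arteries, left to right; filled points passed a limma adjusted p of 0.05. Mmp12 lies farthest from 0 in the left and middle panels (-5.04 and 8.32), and in the right panel Mmp8 and Mmp12 are the filled points above 0 and Mmp23 the one below.

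To set genes side by side, levels were divided by the merged length of all annotated exons of a gene. This length can exceed that of the transcript present, so the order of genes depends on it. Timp2 had the highest mean level of the 10 in each group on this scale. It had 4332 normalised counts per kilobase in inhibitor-treated, 5210 in injured and 5013 in sham arteries. In inhibitor-treated arteries Timp3 (1227) was next to Timp2. Mmp2 (818) and Mmp23 (812) followed with overlapping libraries, then Mmp3 (485), Timp1 (330), Timp4 (329) and Mmp14 (278), which overlapped along their order, and Mmp8 (13.4) and Mmp12 (9.01), which overlapped. In injured arteries the order was Timp2, Mmp2 (4066), Timp1 (2130), Mmp14 (1658), Mmp3 (1187), Timp3 (796), Mmp23 (545), Mmp12 (270), Timp4 (220) and Mmp8 (36.0). There the library ranges of neighbours in this order overlapped, except those of Timp4 and Mmp8. In sham arteries Timp3 (1276), Mmp23 (1086), Mmp2 (880), Mmp3 (558), Timp1 (384), Timp4 (276) and Mmp14 (204) followed, each neighbour apart in all libraries, and Mmp12 (0.64) and Mmp8 (0.299) came last with overlapping libraries. In inhibitor-treated and sham arteries the libraries thus did not settle which of Mmp8 and Mmp12 was last. Before division by a length of 7.24 kb for Mmp12 and 2.42 kb for Mmp8, the inhibitor-treated means were 65.2 and 32.5.

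Beyond the 10 members, 17 other metalloproteinase genes were looked up and 10 were listed (Mmp1a, Mmp1b, Mmp7, Mmp10, Mmp20, Mmp21 and Mmp24 were not). In inhibitor-treated against injured arteries 1 rose and 3 fell of 10 tested, in injured against sham arteries 6 rose and 1 fell of 10, and in inhibitor-treated against sham arteries 0 of 8 passed in limma, where 2 had an unadjusted p under 0.05, edgeR called 0 and DESeq2 called 1. Their medians were -0.56, 1.02 and 0.03 on the log2 scale. The shares called over all genes were 36.1%, 37.3% and 6.08% in these comparisons. Mmp17, a membrane-anchored metalloproteinase that is known in vascular smooth muscle, had 2910, 2947 and 3068 normalised counts in inhibitor-treated libraries, 993, 1028 and 1051 in injured libraries, and 3283, 3433 and 2632 in sham libraries. Like Mmp23 it was lowest in all injured libraries, and changed by 1.54 ± 0.08 in inhibitor-treated over injured (limma adjusted p = 4.38e-05) and by -1.60 ± 0.12 in injured over sham arteries (limma adjusted p = 4.94e-05). Mmp13, collagenase 3 of the same cluster as Mmp3, had 5.7, 37.6 and 9.09 normalised counts in inhibitor-treated libraries, 216, 232 and 17.2 in injured libraries, and 3.0, 1.17 and 1.09 in sham libraries. The lone lower injured value overlapped the inhibitor-treated range. Injured over sham passed (5.18 ± 0.93, limma adjusted p = 0.0028), inhibitor-treated over injured did not (-2.82 ± 1.08, limma adjusted p = 0.0806), and inhibitor-treated over sham was not tested for this gene. Mmp25 (4.33 ± 0.66), Mmp19 (1.76 ± 0.24) and Mmp27 (1.67 ± 0.42) were the next largest of those that rose after injury (limma adjusted p = 0.00124, 0.00066 and 0.0149), and Mmp27 (-1.54 ± 0.35), Mmp19 (-0.92 ± 0.28) and Mmp11 (-0.65 ± 0.14) fell in inhibitor-treated against injured arteries (limma adjusted p = 0.0119, 0.0388 and 0.00898). Mmp25 had a mean of 29.7 in injured and 0.391 in sham arteries, and the sham mean of Mmp13 was 1.76. With sham means under the minimum mean of 10, both were tested in injured against sham arteries only through the injured group.

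Among activators and cell-surface partners of metalloproteinases, 16 of 17 genes were listed. In inhibitor-treated against injured arteries 4 rose and 1 fell of 16 tested. In injured against sham arteries 5 rose and 3 fell of 15, and in inhibitor-treated against sham arteries 3 of 16 were higher. The medians were 0.20, -0.15 and 0.17. Of all genes, 36.1%, 37.3% and 6.08% were called in these comparisons. Plau, the urokinase that turns plasminogen into plasmin, an activator of several pro-metalloproteinases, had 273, 265 and 225 normalised counts in inhibitor-treated libraries, 1374, 1312 and 1107 in injured libraries, and 250, 224 and 211 in sham libraries. It fell by 2.30 ± 0.13 in inhibitor-treated against injured arteries (limma adjusted p = 5.58e-05) and was higher by 2.45 ± 0.13 in injured than in sham arteries (limma adjusted p = 1.51e-05). Reck, a membrane protein known to inhibit MMP2, MMP9 and MMP14, had 1962, 1705 and 2009 normalised counts in inhibitor-treated libraries, 798, 935 and 1309 in injured libraries, and 2242, 2183 and 2170 in sham libraries. Its injured libraries were the lowest, and it moved against Mmp2 and Mmp14, by 0.93 ± 0.18 (limma adjusted p = 0.00697) in inhibitor-treated over injured and -1.15 ± 0.17 (limma adjusted p = 0.0011) in injured over sham arteries. Itgb3, a subunit of the vitronectin receptor, rose by 1.33 ± 0.10 in inhibitor-treated against injured arteries (limma adjusted p = 0.000152), as did Plat, the tissue plasminogen activator, by 0.43 ± 0.12 (limma adjusted p = 0.025). The membrane proteins Tspan8 (4.30 ± 0.98, limma adjusted p = 0.00899) and Cldn1 (1.97 ± 0.49, limma adjusted p = 0.0139) rose in injured against sham arteries. Tspan8, with a sham mean of 6.75, was tested there only through the injured group. Cd44, a hyaluronan receptor that docks MMP9 and MMP14, was 1.09 ± 0.15 higher in inhibitor-treated than in sham arteries (limma adjusted p = 0.00465). It was 1.69 ± 0.19 higher in injured than in sham arteries (limma adjusted p = 0.00025). Its difference between inhibitor-treated and injured arteries did not pass (-0.62 ± 0.21, limma adjusted p = 0.0597). Plg, plasminogen itself, had 496 normalised counts in inhibitor-treated replicate 3, the library with the high hepatocyte sum, and at most 3.67 in each of the other 8 libraries.

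Of 20 genes for matrix proteins that metalloproteinases cut, 9 fell in inhibitor-treated against injured arteries, and 11 rose and 1 fell in injured against sham arteries. Between inhibitor-treated and sham arteries, 1 of 20 was higher in the former. The medians were -0.59, 0.72 and 0.08. Over all genes, 36.1%, 37.3% and 6.08% were called in these comparisons. Spp1, osteopontin, had 67.4, 1948 and 158 normalised counts in inhibitor-treated libraries, 6730, 7232 and 3279 in injured libraries, and 90.1, 104 and 92.6 in sham libraries. Its log2 fold change was -4.29 ± 1.11 in inhibitor-treated over injured (limma adjusted p = 0.0213) and 5.81 ± 0.28 in injured over sham arteries (limma adjusted p = 1.07e-05). The collagen genes Col1a1 (-1.92 ± 0.23, limma adjusted p = 0.000871) and Col3a1 (-1.84 ± 0.23, limma adjusted p = 0.00096) and the laminin chain Lamb1 (-2.02 ± 0.18, limma adjusted p = 0.000259) fell in inhibitor-treated against injured arteries. Vtn, vitronectin, was 2.05 ± 0.16 higher in injured than in sham arteries (limma adjusted p = 5.37e-05). Thbs1, thrombospondin 1, was 1.76 ± 0.25 higher in inhibitor-treated than in sham arteries (limma adjusted p = 0.00543). It was 2.59 ± 0.27 higher in injured than in sham arteries (limma adjusted p = 0.000165), and fell in inhibitor-treated against injured arteries (-0.85 ± 0.14, limma adjusted p = 0.00309).

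Of 15 cytokines known to induce metalloproteinases or TIMPs, 11 were listed. In inhibitor-treated against injured arteries 8 of 11 fell, and in injured against sham arteries 10 of 11 rose. Sham means of Il10, Tnf, Osm, Il6, Il1b and Il11 ran from 0 (Il10) to 8.47 (Il11), under the minimum mean of 10. These genes were thus tested in injured against sham arteries only through the injured group. So were Tnf, Osm, Il11 and Il10 in inhibitor-treated against injured arteries, with inhibitor-treated means of 1.84 to 9.5. In inhibitor-treated against sham arteries 1 of 7 tested was higher. The medians were -2.13, 3.80 and 0.26. Over all genes, 36.1%, 37.3% and 6.08% were called in these comparisons. Il1b, interleukin 1 beta, had 61.7, 110 and 145 normalised counts in inhibitor-treated libraries, 364, 759 and 216 in injured libraries, and 7.01, 1.17 and 2.18 in sham libraries. Like Mmp12, its 3 groups did not overlap. Of the 7 cytokines tested, it was the 1 called higher in inhibitor-treated than in sham arteries (4.73 ± 0.55, limma adjusted p = 0.00201), and its test there rests on its inhibitor-treated level. Tnf, Osm, Il11 and Il10 were not tested there, with means of at most 9.5 in inhibitor-treated and 8.47 in sham arteries. Ccl2 (-3.74 ± 0.54, limma adjusted p = 0.0018), Il10 (-3.07 ± 0.70, limma adjusted p = 0.0126), Tnf (-2.49 ± 0.51, limma adjusted p = 0.00802) and Osm (-2.32 ± 0.50, limma adjusted p = 0.00998) had the largest falls among the genes called in inhibitor-treated against injured arteries. Several of these are also macrophage products.

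Transcription factors of the AP-1, ETS, RUNX and NF-kB families, with Stat3 and Egr1, were split. Sites of such factors are known in metalloproteinase promoters. Of 20, 4 rose and 6 fell in inhibitor-treated against injured arteries, and 11 rose and 2 fell in injured against sham arteries. Between inhibitor-treated and sham arteries, 2 were higher in the former. The medians were -0.23, 0.40 and 0.17. Of all genes, 36.1%, 37.3% and 6.08% were called in these comparisons. Runx1 had 215, 285 and 317 normalised counts in inhibitor-treated libraries, 1479, 962 and 732 in injured libraries, and 71.1, 91.4 and 75.1 in sham libraries. As with Mmp12, the inhibitor-treated libraries lay between the others, with 1.77 ± 0.18 over sham (limma adjusted p = 0.00105). Spi1, the myeloid factor PU.1, changed by -2.64 ± 0.31 in inhibitor-treated over injured (limma adjusted p = 0.000781) and 3.43 ± 0.31 in injured over sham arteries (limma adjusted p = 8.41e-05). Etv4, an ETS factor, changed by -3.02 ± 0.34 (limma adjusted p = 0.000619) and 2.40 ± 0.38 (limma adjusted p = 0.00154) in the same comparisons, and Runx2, the bone and cartilage factor, by -2.22 ± 0.16 (limma adjusted p = 0.000127) and 3.09 ± 0.27 (limma adjusted p = 8.19e-05). The 4 that rose in inhibitor-treated against injured arteries were Fosl1 (1.25 ± 0.30), Jun (0.78 ± 0.12), Etv1 (0.66 ± 0.17) and Ets2 (0.44 ± 0.11). Their limma adjusted p values were 0.0161, 0.00235, 0.0185 and 0.0198. In injured against sham arteries Jun fell (-0.82 ± 0.15, limma adjusted p = 0.00282). Junb (0.65 ± 0.19, limma adjusted p = 0.025) and Fosl2 (0.39 ± 0.13, limma adjusted p = 0.0422) rose there, and Fosb, Fosl1 and Jund did not pass. Fosl2 was also higher in inhibitor-treated than in sham arteries (0.42 ± 0.08, limma adjusted p = 0.0181). Fos passed in none of the 3 comparisons. Whether AP-1 factors have a part in the members' changes was not tested.

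The genes whose pattern was most like each member were ranked by Pearson correlation of log2 levels over the 9 libraries, among 11678 genes with a mean level of at least 100, as a description of libraries that share their condition in threes. Mmp12 was most like Lyz2 (r = 0.998), lysozyme of myeloid cells, then Arhgdib (0.996) and Cdk19 (0.988). Mmp8 was most like S100a9 (0.975), a calcium-binding protein abundant in neutrophils, then Sla (0.974) and Lyn (0.972). Mmp2 was most like Cpxm1 (0.996), Btbd19 (0.995) and Fap (0.995), the last a protease of activated fibroblasts. Mmp3 was most like C1qtnf6 (0.993), Rcn1 (0.989) and Uap1l1 (0.987), and Mmp14 was most like Rgs19 (0.996), Sox4 (0.993) and Fscn1 (0.990). Mmp23 was most like Rcn3 (0.996), P3h4 (0.984) and Slc1a4 (0.980). Timp1 was most like Pigt (0.995), Dram1 (0.995) and Snx8 (0.992), and Timp3 was most like Cdc42bpb (0.994), Lrrc41 (0.991) and Snrnp200 (0.990). Timp4 was most like Fam160b2 (0.977), S1pr3 (0.976) and Hnrnpl (0.949). Timp2 was most like Cnpy2 (0.948), Angptl2 (0.946) and Selenon (0.937), and had the lowest leading value of the 10 members. Between members, r was 0.92 for Mmp2 and Mmp14, 0.96 for Mmp3 and Timp1, and -0.96 for Mmp12 and Mmp23.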

How the data were processed

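RNA-seq of the arterial media was deposited as 3 tables, 1 per pair of groups, with 6 libraries each. Per the file headers, the library columns hold normalised counts, a signal scaled within each table, and the authors also gave a log2 fold change and p-values. Per the submitters' processing notes, the build was mm10, or GRCm38; aligner, counter and strand setting: not given in the sources used here. Low genes are absent from the tables, whose smallest mean values were 9.22 to 9.63. The value of 1 read was estimated from each column, and 100% of values came out whole within 0.01 of a read, giving 14674287 to 21245607 reads per library. The authors' own log2 values and p-values served only as an alternative.

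Each pair was tested in its own table with limma 3.58.1 (R 4.3.3) on log2(value + 1), trended variance, group as the term, two-sided, on genes with a mean of at least 10, with Benjamini-Hochberg adjustment over all genes. The fold changes are on that log2 scale, which understates changes of low genes. Errors beside fold changes are SE. Limma was chosen over a count test since the deposited values are normalised. The count test, edgeR 4.0.16, was run on the recovered reads and called 5962, 6055 and 899 genes for inhibitor-treated against injured, injured against sham and inhibitor-treated against sham, beside 6099, 6076 and 983 by limma. DESeq2 1.42.0 was a further alternative. Levels across groups used median-of-ratios factors over 16750 genes in at least 2 tables. Replicates of a group correlated at 0.955 to 0.987 (Pearson, log2 values), with chi-square per degree of freedom of 10.8 to 99.7, so no 2 libraries agreed within sampling noise. The limma fit was tested on simulated data.

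All 10 members are named, and of each list up to 4 genes with the largest change among those past the threshold without overlap. The listed genes that overlap TIMP genes are all given. Gm17482, which holds Timp4 on the other strand, was not listed. The name Ddc8, also looked up, was found for no listed gene. Of the genes named beyond this, Plg was singled out after its values were seen. Fos, Fosb, Junb, Jund and the transcription factors that rose in inhibitor-treated against injured arteries were also named after that. The members and the lists were chosen with earlier results of these data known. No other sample column was present. Alternatives were another pseudocount, filter, scaling and test, a replicate block, 1 fit of all libraries, and libraries left out. Gene positions come from GENCODE M21 on GRCm38, and promoters from RefSeq.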

Additional observations from a re-analysis of the deposited data

How the results depend on the processing

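Of 567 alternative values of the 10 genes' log2 fold changes over the 3 comparisons, 546 kept their direction and their side of the threshold, 16 lost a call, 4 gained one and 1 changed sign. The sign change was Timp2 in injured over sham arteries, at -0.04 without injured replicate 1, in a range of -0.04 to 0.15 over the libraries left out in turn, none of which passed the test. Neither pseudocount, nor TMM or median-of-ratios scaling, edgeR, DESeq2, the authors' deposited values, nor the fit with the replicate block changed a call of these genes.

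Without the 3 libraries that stood apart, 3069 genes were called in inhibitor-treated against injured arteries, beside 6099 with all, with 2 libraries left in each group. Members called in inhibitor-treated against sham arteries numbered 3, and 1 with a minimum mean of 50, where Mmp8 and Mmp12 were no longer tested; Mmp8 also left the injured against sham test there. Leaving out 1 library at a time gave 0 to 3 members called in inhibitor-treated against sham arteries, 6 to 8 in inhibitor-treated against injured and 7 to 8 in injured against sham arteries. Over all genes it gave 518 to 822, 4099 to 7938 and 4350 to 7312 calls in those comparisons. The split of inhibitor-treated against sham calls into higher and lower was 832 and 151, and 617 and 220 after quantile normalisation, 721 and 38 in 1 fit of all 9 libraries. For injured against sham it was 3346 and 2730, and 2842 and 3344 after quantile normalisation, 2449 and 2527 with a minimum mean of 50.

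The labels give the same replicate numbers in each group. Same-numbered libraries deviated together with correlations of -0.07 to 0.21, and did not each correlate best with their own number, so they were not taken as pairs. The fit with the replicate block called 5747, 5762 and 877 genes and 7, 7 and 3 members in inhibitor-treated against injured, injured against sham and inhibitor-treated against sham arteries. The Mmp8 and Mmp12 differences from sham rest on 2 and 13 reads over the 3 sham libraries.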
